A study of Mus musculus with 4 samples.

Results

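Neurotrophins and their receptors were followed in the adult whole brain of mice that had received ethanol as neonates. The group holds the ligands Bdnf, Ntf3 and Gdnf, the receptor kinases Ntrk2 and Ntrk3, and the receptors Ngfr and Sort1, chosen by name and taken wherever the platform annotation gives exactly that symbol. Of the 7 genes, 6 had a probe set, with 1 each, among 35556 probe sets on the array. Ntf3, which encodes neurotrophin-3, the preferred ligand of the Ntrk3 product, was not analysed here.

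Ethanol-exposed male C57BL/6J pups received subcutaneous injections of 20% ethanol in 0.15 M saline at postnatal days 4 and 7, as 2 doses of 2.5 g/kg set 2 h apart, and control pups received the saline alone. The labels give weaning at day 25 and brain collection at day 60, and the methods give other days for both. Each array carried a pool of whole-brain RNA, made from 3 males of different litters, and there were 2 arrays per group, called ethanol 2, ethanol 4, control 1 and control 3 by their titles. A separate treatment entry in the labels names the opposite group for control 1 and ethanol 4, and the titles were used here. Because the 3 brains behind each array were mixed before hybridisation, the errors given below rest on the spread between pools, not between mice. In limma that spread is moderated by the spread shared across all probe sets. Because whole brain was used, fewer cells of a type and less RNA per cell cannot be told apart.

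Neurotrophins are secreted growth factors that keep neurons alive during development and tune synapses in the adult brain. They are made as proneurotrophins and cleaved to mature forms. Mature forms act through Trk receptor tyrosine kinases, which recruit adaptor proteins and start the MAP kinase, PI3 kinase and phospholipase C pathways, while the proforms bind the p75 receptor together with sortilin and can drive cell death. Gdnf belongs to a separate ligand family that signals through the Ret kinase and GPI-anchored co-receptors.

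Transcription of Bdnf starts at several alternative promoters, and the single Bdnf probe set, which lists 11 RefSeq accessions on the platform, returned 1 value for all of them. In the RefSeq table of GRCm38.p6, 7 Bdnf and 2 Gdnf start sites had a window of 250 bases before the start. The window of each ligand that holds the cyclic AMP response element core, ACGTCA read on either strand (TGACGT), is shown because CREB and its partners bind that element in activity-dependent transcription and the arrays could not tell these starts from the others. Capitals mark the 6 bases. The same letters were found in 6.47% of the 32851 windows in the table, and a match is a description of the letters only. The Bdnf window lies on the plus strand at chr2:109692186-109692435, with the first base of the match 36 bases before the start. The Gdnf window lies on the plus strand at chr15:7809798-7810047, with the first base of the match 51 bases before the start.
Bdnf: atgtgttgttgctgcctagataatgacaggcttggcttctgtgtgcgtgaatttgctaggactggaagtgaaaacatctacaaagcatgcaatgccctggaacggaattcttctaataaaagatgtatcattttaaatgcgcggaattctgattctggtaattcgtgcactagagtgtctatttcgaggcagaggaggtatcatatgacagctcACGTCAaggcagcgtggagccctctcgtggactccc
Gdnf: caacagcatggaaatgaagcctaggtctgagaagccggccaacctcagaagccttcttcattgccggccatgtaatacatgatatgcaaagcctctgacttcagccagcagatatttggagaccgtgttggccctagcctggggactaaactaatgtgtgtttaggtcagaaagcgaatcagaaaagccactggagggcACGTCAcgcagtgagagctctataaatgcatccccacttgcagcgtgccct

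Values are the deposited log2 signals, and each difference is ethanol minus control from limma, with its standard error, its 95% interval and a p-value adjusted by Benjamini-Hochberg over all probe sets. The arrays were not level as deposited: the median log2 signal was 6.33 and 6.38 on ethanol 2 and ethanol 4, against 6.61 and 6.51 on control 1 and control 3, and 80.2% of probe sets had a negative difference, with a median of -0.15. All values were also quantile normalized, which brought the median difference over all probe sets to -0.004. Differences of the members are therefore given beside this shift and in both forms. One ethanol array stood apart in pituitary transcripts, with Gh at 6.53 on ethanol 2 and 12.26 on ethanol 4, against 12.24 and 12.19 on control 1 and control 3.

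None of the 6 members differed between ethanol and control brains by 1.2-fold with an unadjusted p under 0.05, the limits of the study's methods, in the deposited values. In all probe sets, 17.9% were lower and 2.23% higher past these limits. After quantile normalization 1 member, Ngfr, was higher past the limits and 0 were lower, where 5.71% of all probe sets were higher and 5.87% lower. No member reached an adjusted p under 0.05 in limma in either form of the values, with adjusted p between 0.353 and 0.875 as deposited and between 0.366 and 0.792 after normalization, and over all probe sets 1 and 2 reached it.

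Among the ligands, Bdnf, the ligand of TrkB, had a log2 signal of 5.54 and 5.74 on ethanol 2 and ethanol 4, against 5.62 and 5.59 on control 1 and control 3. The ethanol arrays lay on either side of both control arrays, so the groups overlapped. The difference was 0.03 (SE 0.11, 95% interval -0.25 to 0.31, adjusted p = 0.875), and the interval in linear terms ran from 0.841-fold to 1.24-fold. After quantile normalization Bdnf stood at 5.66 and 5.79 in ethanol brains, against 5.50 and 5.54 in control brains. Both ethanol arrays were then above both control arrays, by 0.21 on average (SE 0.09, 95% interval -0.03 to 0.45, adjusted p = 0.400), and the value did not pass the limits.

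Gdnf, a survival factor for midbrain dopamine neurons, had a log2 signal of 5.40 and 5.62 on ethanol 2 and ethanol 4, against 5.52 and 5.59 on control 1 and control 3. The lowest and the highest of the 4 arrays were both ethanol arrays. Its difference was -0.04 (SE 0.11, 95% interval -0.34 to 0.26, adjusted p = 0.837) as deposited and 0.13 (95% interval -0.14 to 0.41, adjusted p = 0.593) after quantile normalization, so its direction depended on the scaling. Both ligands were dim probe sets, below the median signal of every array.

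**Figure D1:**
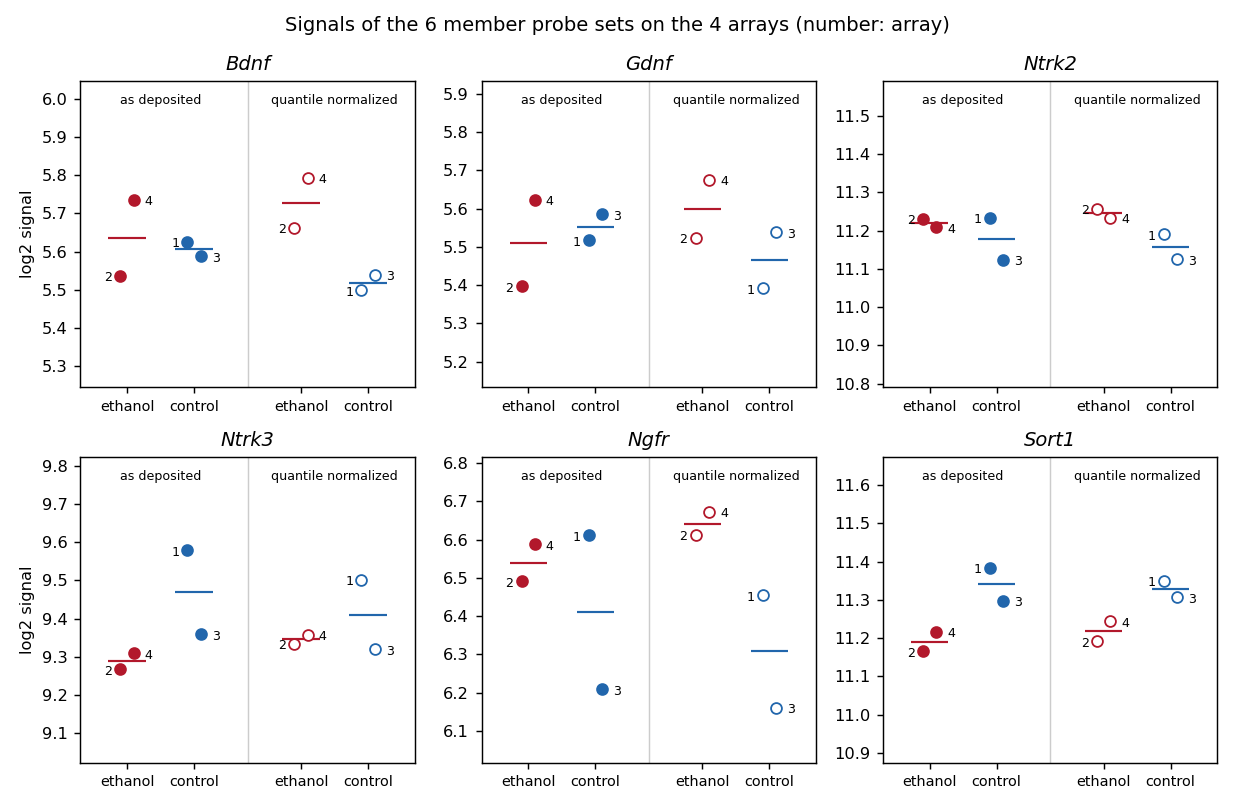
Log2 signal (vertical axis, spanning 0.8 in every panel but starting at different values) of each member on ethanol arrays (red, left) and control arrays (blue, right), as deposited (filled) and after quantile normalization (open). Points are arrays with their numbers and lines are group means (n = 2). Only Ntrk3 and Sort1 have both ethanol arrays below both control arrays as deposited, beside 52.7% of all probe sets. Only Sort1 keeps that order after normalization, beside 24.9% of all probe sets. Bdnf, Ntrk2 and Ngfr then have both ethanol arrays above both control arrays, beside 24% of all probe sets.

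Among the receptor kinases, Ntrk2, which encodes TrkB, the receptor for Bdnf, was among the bright probe sets of the array. Its log2 signal was 11.23 and 11.21 on ethanol 2 and ethanol 4, against 11.23 and 11.12 on control 1 and control 3. Control 3 was lowest and the other 3 arrays were within 0.03 of each other. The difference was 0.04 (SE 0.09, 95% interval -0.20 to 0.28, adjusted p = 0.798), and 0.09 after quantile normalization (95% interval -0.13 to 0.30, adjusted p = 0.651), where both ethanol arrays lay above both control arrays. The 3 RefSeq accessions on this probe set share 1 value, so full-length and truncated TrkB transcripts were not separated.

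Ntrk3 encodes TrkC, the receptor for neurotrophin-3. Its log2 signal was 9.27 and 9.31 on ethanol 2 and ethanol 4, against 9.58 and 9.36 on control 1 and control 3. Both ethanol arrays were below both control arrays, with control 1 well above the other 3. The difference of -0.18 (SE 0.11, 95% interval -0.47 to 0.11, adjusted p = 0.367) was the most negative of the members. It was close to the median of -0.15 over all probe sets, and after quantile normalization it was -0.06 (95% interval -0.32 to 0.20, adjusted p = 0.792) and the groups overlapped. With arrays centred on their medians it was 0.03, beside a median of 0.07 over all probe sets, so its sign depended on the scaling.

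Ngfr encodes p75, the receptor that all neurotrophins share and that marks basal forebrain cholinergic neurons in the adult brain. Its log2 signal was 6.49 and 6.59 on ethanol 2 and ethanol 4, against 6.61 and 6.21 on control 1 and control 3. The control arrays were 0.40 apart and enclosed both ethanol arrays. The difference was 0.13 (SE 0.16, 95% interval -0.29 to 0.55, adjusted p = 0.630). After quantile normalization the signal was 6.61 and 6.67 in ethanol brains, against 6.45 and 6.16 in control brains, and both ethanol arrays were above both control arrays. The difference was then 0.33 (SE 0.13, 95% interval 0.001 to 0.67, 1.26-fold), past the limits but with an adjusted p of 0.366 in limma. The normalized difference was 0.19 without control 3 and 0.48 without control 1, and it fell outside the limits when control 3, ethanol 2 or ethanol 4 was left out. As deposited, it was -0.07 without control 3.

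Sort1 encodes sortilin, which sorts Bdnf within the cell and is the partner of p75 for proneurotrophins. Its log2 signal was 11.17 and 11.22 on ethanol 2 and ethanol 4, against 11.38 and 11.30 on control 1 and control 3. Both ethanol arrays were below both control arrays as deposited and again after quantile normalization, at 11.19 and 11.24 in ethanol brains, against 11.35 and 11.31 in control brains. The difference was -0.15 (SE 0.09, 95% interval -0.38 to 0.08, adjusted p = 0.353), the size of the median over all probe sets, and -0.11 after normalization (95% interval -0.32 to 0.10, adjusted p = 0.576). When each array was only centred on its median the difference was 0.06, beside a median of 0.07 over all probe sets. The sign therefore depended on the scaling, while Sort1 stayed close to the median of all probe sets in the deposited and the centred values.

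**Figure D2:**
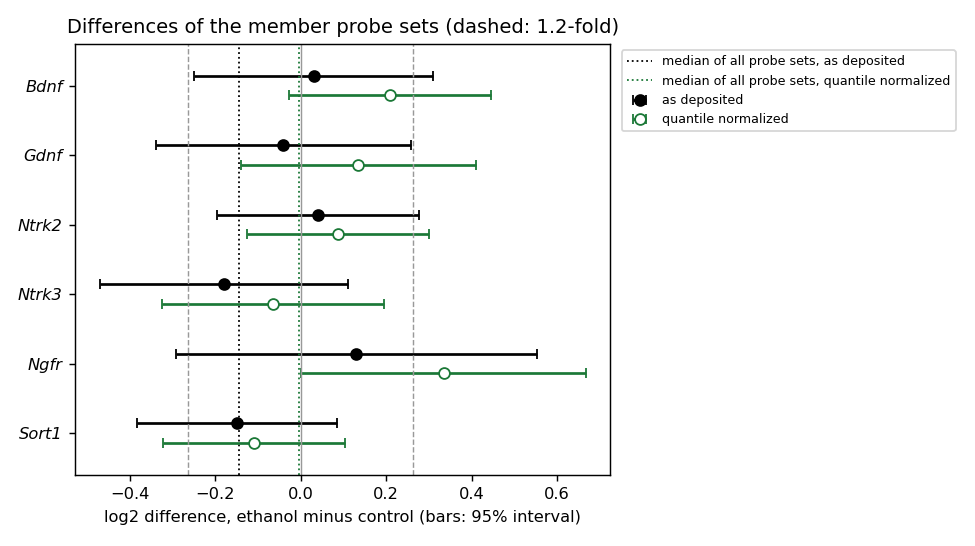
Log2 difference, ethanol minus control (horizontal axis), of each member with its 95% interval from limma, as deposited (black) and after quantile normalization (green), n = 2 arrays per group. Dotted lines give the median over all probe sets (-0.15 and -0.004) and dashed lines the 1.2-fold limit; every interval spans 0 except that of Ngfr after normalization, which starts at 0.001.

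Read as a group, the members had 3 negative and 3 positive differences as deposited, with a median of -0.01 beside -0.15 over all probe sets. After quantile normalization 2 of 6 were negative, with a median of 0.11 beside -0.004. Both ethanol arrays were below both control arrays in 2 of 6 members as deposited, against 52.7% of all probe sets, and above them in 0 of 6, against 7.25%. The same counts after normalization were 1 of 6 below, against 24.9%, and 3 of 6 above, against 24% of all probe sets. With the treatment entry as the grouping, each group holds 1 array titled ethanol and 1 titled control, so it cannot test the difference by title. Ntrk3 was then at 0.09, Sort1 at 0.02 and Bdnf at -0.08, each with the opposite sign to the grouping by title. No member was past the limits under that grouping, nor when any 1 array was left out of the deposited values.

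**Figure D3:**
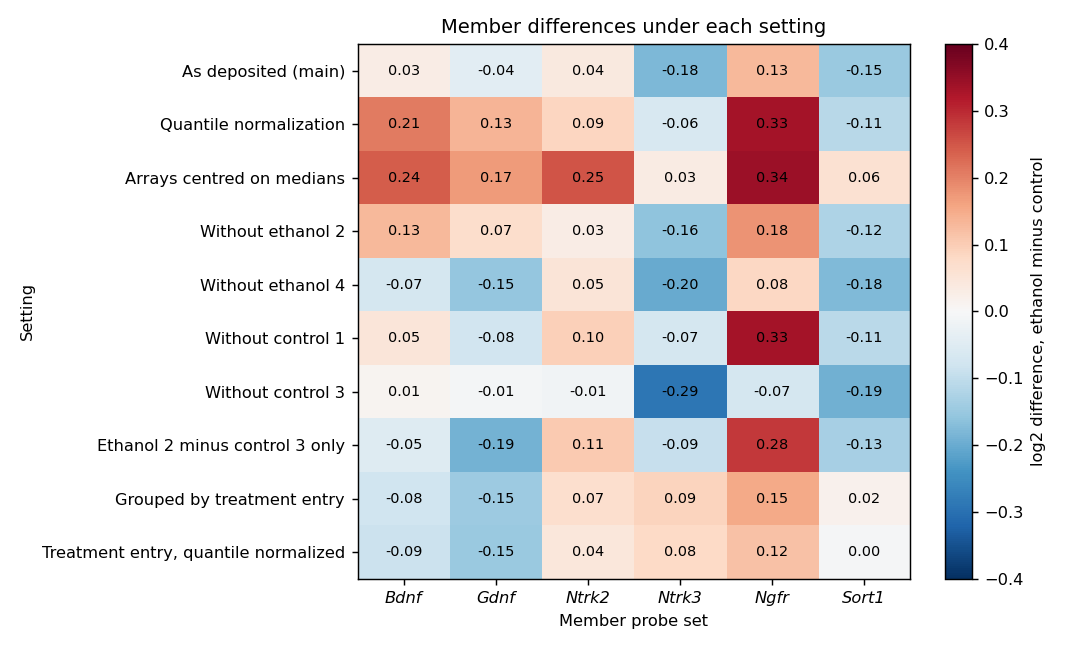
Log2 difference, ethanol minus control, of each member (columns) under each way of scaling, grouping or leaving out arrays (rows), with colour running from blue (negative) to red (positive). Ngfr ranges from -0.07 without control 3 to 0.34 with arrays centred on their medians, and no member has 1 sign in all 10 rows.

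Other genes of the pathway were taken from 8 lists by role, and 90 of 110 listed symbols had a probe set. Past the limits as deposited, 14 were lower in ethanol brains, 15.6% beside the 17.9% of all probe sets. In the same values 1 was higher, 1.11% beside 2.23%. After quantile normalization 5 were lower (5.56%) and 6 higher (6.67%), beside 5.87% and 5.71% of all probe sets. In both forms 5 genes were lower and 1 was higher. No gene of the 8 lists reached an adjusted p under 0.05 in limma. As deposited, 15 of the 90 had an unadjusted p under 0.05 in limma, beside 7876 of all 35556 probe sets. Ntf5, which encodes neurotrophin-4, the other TrkB ligand, was the only further neurotrophin measured, at -0.08 (adjusted p = 0.558) as deposited and 0.05 after normalization. None of the 8 further receptors and co-receptors passed the limits in either form. Their deposited differences ran from -0.31 for Sorcs1, a sortilin relative, to -0.11 for Kidins220, a scaffold of Trk receptors, with a median of -0.16.

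Calls in the lists of processing and the GDNF family stand beside 17.9% lower and 2.23% higher over all probe sets as deposited. After normalization the shares were 5.87% and 5.71%. Among 11 genes of proneurotrophin processing and sorting, Hap1 was higher past the limits. Hap1 encodes a huntingtin-associated protein that takes part in transport of Bdnf vesicles, and its log2 signal was 8.87 and 8.88 on ethanol 2 and ethanol 4, against 8.14 and 8.40 on control 1 and control 3. Both ethanol arrays were above both control arrays by 0.60 on average (SE 0.12, adjusted p = 0.171), and by 0.74 after quantile normalization. Pcsk7, a proprotein convertase, was lower as deposited at -0.28 (adjusted p = 0.213), a difference of -0.07 after normalization. Of 12 genes listed with the GDNF family, Cdnf was lower in both forms, at -0.48 (SE 0.10, adjusted p = 0.171) and -0.28. Cdnf encodes a dopamine neurotrophic factor that is not itself a ligand of Ret. Nrtn, which encodes the Ret ligand neurturin, was at 0.19 as deposited and higher past the limits at 0.35 after normalization. Ret itself was at -0.01 (adjusted p = 0.956), and Gfra1, the co-receptor of Gdnf, at -0.05 (adjusted p = 0.768).

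Of 23 adaptors and enzymes downstream of Trk receptors, 8 were lower and 0 higher past the limits as deposited, beside 17.9% lower and 2.23% higher over all probe sets, and the median difference was -0.18 beside -0.15. By smallest p these were led by Ptpn1, a tyrosine phosphatase, at -0.53 (SE 0.10, adjusted p = 0.165), Grb2, the adaptor that links receptors to Ras, at -0.40, Frs3, an adaptor of the FRS family, at -0.42, and Sh2b1, another Trk adaptor, at -0.33. Ptpn1 had log2 signals of 7.33 and 7.20 on ethanol 2 and ethanol 4, against 7.75 and 7.83 on control 1 and control 3, and both ethanol arrays were lower. After normalization 2 of the 23 were lower, Ptpn1 at -0.35 and Frs3 at -0.28, and Sh2b2, another adaptor, was higher at 0.36, beside 5.87% lower and 5.71% higher over all probe sets. Of 10 genes of p75 signalling, Irak1, a kinase of the pathway to NF-kappaB, was lower at -0.41 (adjusted p = 0.215) as deposited and at -0.27 after normalization, where it did not pass the limits.

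For the next 2 lists, 17.9% of all probe sets were lower and 2.23% higher past the limits as deposited. After normalization these shares were 5.87% and 5.71%. Among 9 regulators of Bdnf transcription, Usf2, a basic helix-loop-helix factor, was lower past the limits as deposited at -0.26 and not after normalization at -0.15. Npas4, an activity-induced factor that drives Bdnf, was at 0.43 (adjusted p = 0.247) as deposited and higher past the limits at 0.61 after normalization. Hdac2, a histone deacetylase, was at 0.28 and 0.36, with the second past the limits. Of 16 genes that Bdnf is known to induce in neurons, Spry2, an inhibitor of receptor kinase signalling, and Vgf, a secreted neuropeptide precursor, were lower in both forms. Spry2 had log2 signals of 7.41 and 7.44 on ethanol 2 and ethanol 4, against 7.88 and 7.92 on control 1 and control 3, a difference of -0.48 (SE 0.08, adjusted p = 0.165) as deposited and -0.31 after normalization. Vgf had log2 signals of 8.11 and 8.32 on ethanol 2 and ethanol 4, against 8.76 and 8.63 on control 1 and control 3, a difference of -0.48 (SE 0.11, adjusted p = 0.173) and -0.35 after normalization. The groups did not overlap for either gene as deposited, where 52.7% of all probe sets had both ethanol arrays below both control arrays. The immediate early genes Arc, at 0.02 (adjusted p = 0.969), and Egr1, at -0.10 (adjusted p = 0.568), did not pass the limits in the deposited values. Neither did Egr2, at 0.48 (adjusted p = 0.348), or Nr4a1, at -0.26 (adjusted p = 0.300), in limma. Ier2, another immediate early gene, was at 0.17 (adjusted p = 0.290) as deposited, with both ethanol arrays above both control arrays, and was higher past the limits at 0.30 after normalization.

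**Figure D4:**
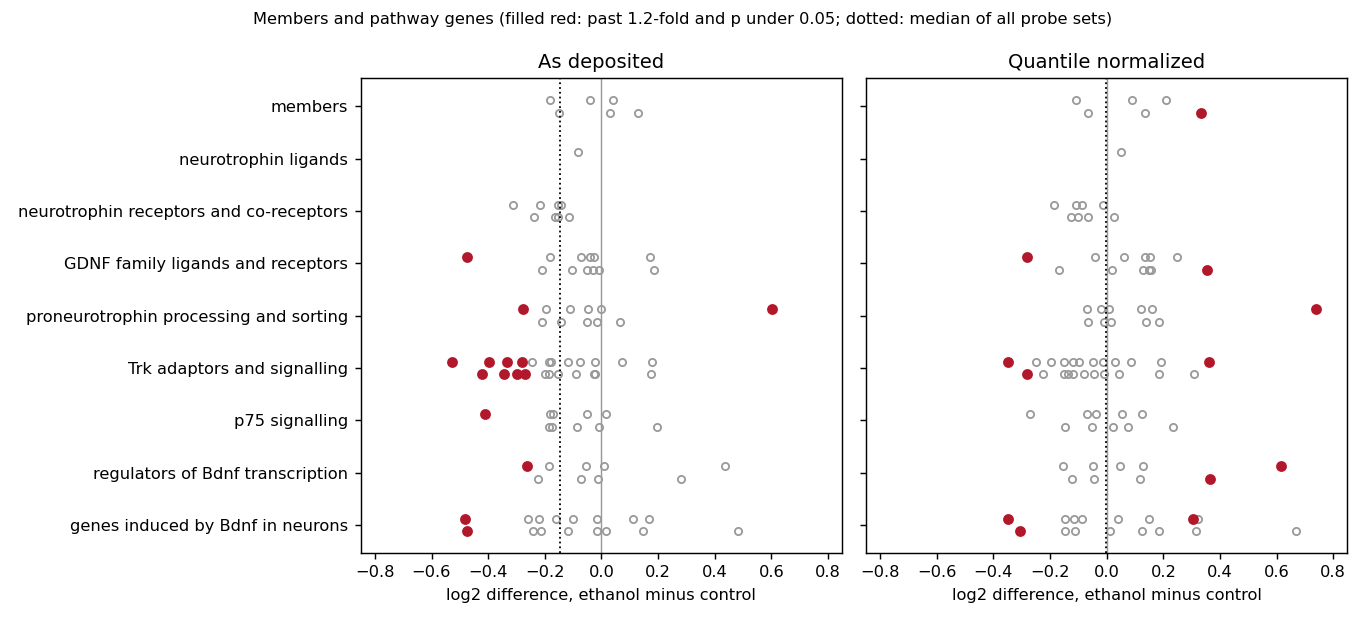
Log2 difference, ethanol minus control (horizontal axis), of the 6 members and 90 pathway genes by list (rows), as deposited (left) and after quantile normalization (right). Each point is a gene; filled red points are past 1.2-fold with an unadjusted p under 0.05, of which the pathway lists hold 14 lower and 1 higher on the left, and 5 lower and 6 higher on the right.

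Markers of the cells that carry these receptors were set beside the members. As whole brain should, all 4 arrays carried neuron markers at bright levels, with a mean log2 signal of 11.56 on both ethanol 2 and ethanol 4, against 11.72 and 11.60 on control 1 and control 3. The marker counts that follow stand beside 17.9% lower and 2.23% higher past the limits over all probe sets as deposited. Beside the counts after quantile normalization the shares were 5.87% lower and 5.71% higher. Of 9 astrocyte markers, cells that carry truncated TrkB, 0 passed the limits. Neither did any of the 8 neuron markers or the 6 microglia markers, while 1 of 7 oligodendrocyte markers, Cnp, was lower at -0.29. These counts were the same after normalization, with Cnp again at -0.29. Basal forebrain cholinergic neurons carry p75, and 2 of their 5 markers were lower as deposited, Ache at -0.50 (adjusted p = 0.177) and Chat at -0.38 (adjusted p = 0.185). Ache was lower past the limits after normalization as well, and Slc5a7, the choline transporter of the same neurons, was higher past the limits only after normalization, at 0.36. The mean log2 level of the 5 was 6.57 and 6.58 on ethanol 2 and ethanol 4, against 6.81 and 6.73 on control 1 and control 3, and after normalization 6.68 and 6.65 in ethanol brains, against 6.68 and 6.69 in control brains. Of 6 hippocampal markers Wfs1 and Prox1 were lower as deposited, at -0.27 and -0.29, and 0 after normalization. Of 6 cerebellar markers Gabra6 was higher past the limits in both forms, at 0.51 as deposited and 0.58 after normalization. Of 7 vascular and meningeal markers Pecam1 was lower as deposited, at -0.37, and of 5 choroid plexus markers Kl was lower, at -0.42. After normalization Pecam1 was at -0.16 and Kl at -0.26, and neither passed the limits. In either form 0 of 4 striatal markers passed them. The part of any of these lists in the members' values was not tested. The mean log2 level of the 6 pituitary markers measured was 5.65 on ethanol 2 and 8.28 on ethanol 4, against 8.26 and 8.23 on control 1 and control 3. Gh, Prl and Cga, which encode pituitary hormones or a subunit of them, were low on ethanol 2 alone, whereas Pomc, the precursor of ACTH, was low on both ethanol arrays, at 5.48 and 5.50 on ethanol 2 and ethanol 4, against 5.95 and 6.09 on control 1 and control 3. Pomc was the only one of the 6 past the limits, and was lower in both forms of the values, at -0.53 (adjusted p = 0.165) as deposited and -0.35 after normalization. Without ethanol 2 the member differences were 0.13 for Bdnf, 0.07 for Gdnf, 0.18 for Ngfr and 0.03 for Ntrk2. They were -0.16 for Ntrk3 and -0.12 for Sort1.

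The genes whose deposited profile over the 4 arrays lay closest to that of Bdnf, each profile centred on its own mean, were Hsd11b1, Pcdh10 and Ltn1, with root mean square distances of 0.0038, 0.0053 and 0.010 on the log2 scale. These were the nearest of 10396 probe sets that name 1 gene with a mean log2 signal of at least 7, and 363 lay within 0.05, so the likeness over 4 arrays picks out no single gene.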

How the data were processed

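RNA from whole brain was hybridised to 4 Affymetrix Mouse Gene 1.0 ST arrays. By the authors' methods, probes were summarised to gene level with RMA in Partek Genomics Suite, corrected for GC content, quantile normalized and log2-transformed. The deposited log2 signals nevertheless had unequal array medians, and the cause was not tested. The submitters' processing notes give version 6.6 and the methods another. Gene names come from the platform annotation, where 21789 of 35556 probe sets name 1 gene, 1621 several and 12146 none.

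Arrays were grouped by title and tested with limma 3.58.1 in R 4.3.3 (lmFit and eBayes, two-sided, Benjamini-Hochberg over all probe sets, degrees of freedom 2 residual plus 2.57 prior), a step tested on simulated data. The number of arrays limits the precision. Limits for counting were 1.2-fold and an unadjusted p under 0.05. A pathway or marker gene was taken by its brightest probe set naming it alone. Named were all members and, of each pathway list, up to 4 genes past the limits by smallest p, or the highest and lowest. Ret, Gfra1, Arc, Egr1, Egr2, Nr4a1 and the genes past the limits only after normalization were added after their values were seen. Members and lists were chosen with earlier results of these data known.

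The labels say that the mice of a pool had littermates in a pool of the other group without naming the pools, so no pairing was assumed. Other scalings, groupings, left-out arrays, filters and tests were tried, 2 of them chosen after seeing the data: quantile normalization with the treatment entry, and quantile normalization with an array left out.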

Additional observations from a re-analysis of the deposited data

How the results depend on the processing

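With 2 pools per group, adjusted p was at least 0.275 for every member, by limma or by a test per probe set without a shared spread. These values neither show nor exclude a member difference of the size measured. No member was lower past the limits in any setting with 2 arrays per group. Only Ngfr was higher past them, under quantile normalization (0.33) and with arrays centred on their medians (0.34). Over all probe sets 5.71% and 9.09% were higher past the limits in these 2 settings. After quantile normalization leaving out control 1, which leaves 1 control array, the Ngfr difference was 0.48. The replicate block, run for both possible pairings of pools, put no member past the limits. It could not move a member difference, because each block holds 1 array of each group. Only the errors and p-values could change.

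Quantile normalization turned Gdnf to 0.13, and to 0.062, 0.21, 0.21 and 0.060 when control 1, ethanol 2, control 3 or ethanol 4 was then left out, and Ntrk3 to 0.026 when control 1 was. Centring arrays on their medians turned Gdnf to 0.17, Ntrk3 to 0.032 and Sort1 to 0.062. Centring moves the difference of every probe set by the same amount, and the median over all probe sets was then 0.066. Grouping by the treatment entry turned Bdnf to -0.081, Ntrk3 to 0.089 and Sort1 to 0.017, and with quantile normalization Bdnf to -0.086 and Ntrk3 to 0.079. Each group of that entry holds 1 array titled ethanol and 1 titled control, so these values cannot test the difference by title. With ethanol 2 and control 3 alone Bdnf was -0.051. Leaving out 1 array of the deposited values gave -0.069 to 0.13 for Bdnf, -0.15 to 0.072 for Gdnf, -0.071 to 0.33 for Ngfr and -0.015 to 0.10 for Ntrk2. The cause of these reversals was not tested.

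Of the 90 pathway genes, 14 were lower and 1 higher past the limits as deposited, where 17.9% and 2.23% of all probe sets were. They were 5 and 6 after quantile normalization (5.87% and 5.71% of all probe sets), and 4 and 10 with centring (3.91% and 9.09%). By the treatment entry they were 0 and 0, both as deposited (0.686% and 0.917%) and with quantile normalization (1.36% and 1.41%). With the replicate block they were 8 and 1 for control 1 paired with ethanol 2 (17.0% and 2.75%), and 10 and 3 for control 1 paired with ethanol 4 (16.7% and 2.34%). They were 15 and 3 in a fit of probe sets naming 1 gene (20.1% and 0.794%), 6 and 1 by a test per probe set without a shared spread (8.11% and 0.765%), and 0 and 1 at 1.5-fold (3.63% and 1.14%).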
